A study of Drosophila melanogaster with 40 samples.

Results

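The comparison described here is *jumu* mutant ovary against wild-type ovary of *Drosophila melanogaster*, measured by RNA-seq of poly(A) RNA in 4 of the 40 samples of the series. The mutant group has 2 libraries from ovaries of flies labelled as *jumu* mutant, and the wild-type group has 2 libraries from ovaries of the *w1118* strain. The study made 2 *jumu* alleles by CRISPR/Cas9, and the labels do not say which allele or combination the sequenced ovaries carried. The label field for tissue reads embryo in all 4 samples, while their titles, sources and age fields read ovary, and no age of the females is given. The rest of the series covers embryos: 6mA and Jumu binding in the genome, and RNA of *jumu*, *DMAD* and *zelda* backgrounds. The ovary table lists 11482 genes, and the 7918 genes with at least 1 FPKM (a count of RNA fragments scaled to transcript length and library size) in either group were examined.

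The table holds 1 value per gene and group, which the authors made from both libraries of the group, so no spread between libraries can be given and no difference below was tested. The change of a gene is log2(FPKM + 1) in the mutant minus log2(FPKM + 1) in the wild type, and a gene is called higher or lower where this change is at least 1 in size, a 2-fold difference on that scale. Sequencing depth is unknown here. No gene of the table is listed at 0 in wild-type ovary, whereas 1137 are listed at 0 in mutant ovary, so a gene seen in the mutant alone cannot appear in it. Genes listed at 0 in the mutant are named as such and given no fold difference.

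The fly ovary is a bundle of ovarioles in which germline stem cells divide, form cysts of nurse cells and one oocyte, and become wrapped in a somatic follicular epithelium. The germ line makes the RNAs and proteins that the egg will need before its own genome is switched on. The follicle cells make yolk protein and then the eggshell, first the vitelline membrane next to the oocyte and later the chorion around it. Jumu (Jumeau) is a forkhead, or winged-helix, transcription factor of the Fox family, and the comparison sets ovaries of females mutant for it beside normal ones.

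Vitelline membrane and yolk protein genes were lower and the small heat shock genes *Hsp22* and *Hsp23* higher in the mutant ovaries, while the RNAs that build and pattern the oocyte were within 2-fold of wild type. Of the 7918 genes, 124 were higher (1.57%) and 402 were lower (5.08%) in mutant ovary. This balance depends on scaling: 23.6% of the calls were higher as reported, 40.0% after quantile normalization (189 higher, 284 lower) and 51.4% with both columns set to the same ribosomal protein sum (259 higher, 245 lower). The median change over all of them was 0.02, with quartiles of −0.19 and 0.16, and 64.3% of the genes lay within 0.25 of 0. Of the 402 lower genes, 101 were listed at 0 in the mutant, and with those left out 301 lower genes remained. In all, 200 of the lower genes were below 1 FPKM in the mutant, and 48 of the higher genes were below 1 FPKM in wild type. These reached the minimum in 1 group only, which fixed their direction. Among the 7343 genes at 1 FPKM or more in both groups, 76 were higher and 202 lower. Most calls were in weakly expressed genes: the median level of the higher genes was 7.07 FPKM in mutant and 1.51 FPKM in wild-type ovary, and that of the lower genes was 1.04 FPKM in mutant and 7.09 FPKM in wild-type ovary. Among the 4286 genes with a mean level of 20 to 100 FPKM, 14 were higher and 40 were lower. The median level of all 7918 genes was 37.2 FPKM in mutant and 36.1 FPKM in wild-type ovary.

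**Figure D1:**
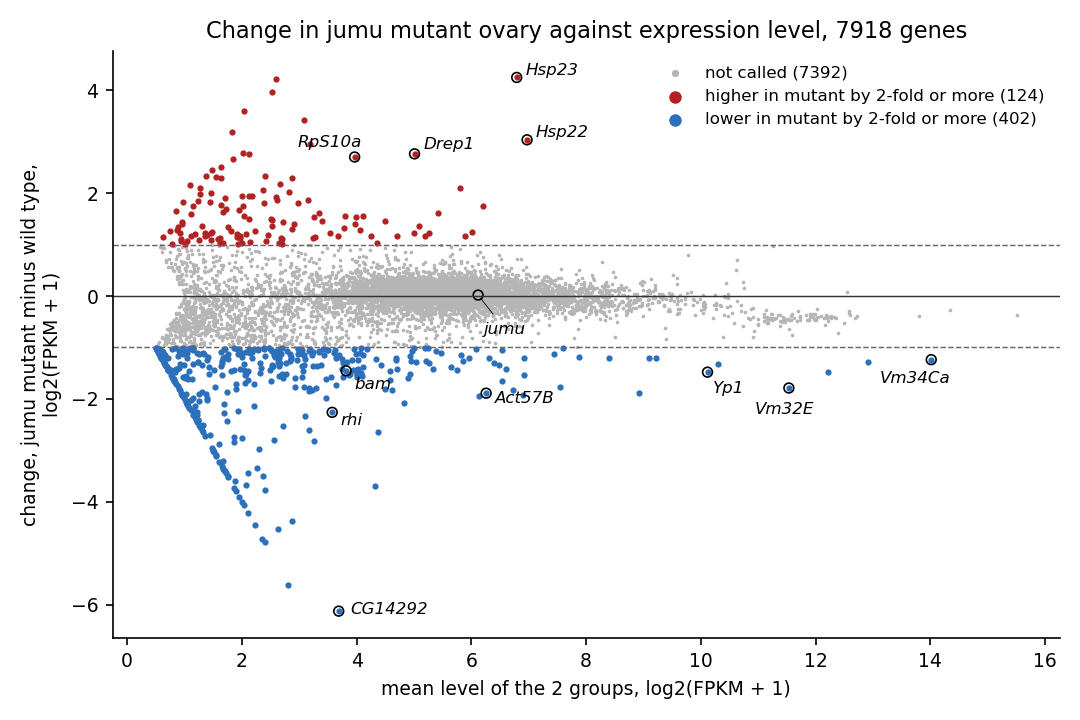
Change of each of the 7918 genes in jumu mutant ovary (vertical axis, difference of log2(FPKM + 1), mutant minus wild type) against its mean level in the 2 groups (horizontal axis, log2(FPKM + 1)). Each point is a gene with 1 pooled value per group. Red points are the 124 genes higher and blue points the 402 genes lower by at least 1, marked by dashed lines, and the sloping lower edge on the left is formed by genes listed at 0 in the mutant. jumu itself lies at a change of 0.02, and the vitelline membrane genes are the blue points on the far right.

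The targeted gene was read first. *jumu* had 68.9 FPKM in mutant ovary and 68 FPKM in wild-type ovary, a change of 0.02. An edited gene can still be transcribed, so the level of this RNA does not check the mutant label. The Jumu protein was not measured in these files. By western blot the paper reports loss of Jumu in *jumu* mutant ovaries, and the labels do not say whether those match the sequenced ones. The other Fox genes above 1 FPKM were also close to wild type: *FoxK* had 49.7 FPKM in mutant and 47.6 FPKM in wild-type ovary, *foxo* had 42.8 FPKM in mutant and 38.4 FPKM in wild-type ovary, and *CHES-1-like* had 30.3 FPKM in mutant and 28.8 FPKM in wild-type ovary. The genes that the study follows as Jumu targets in embryos did not reach 2-fold in ovary. *zld*, which encodes the Zelda factor that opens the embryonic genome for transcription, had 82.9 FPKM in mutant and 73.8 FPKM in wild-type ovary (change 0.17). *lilli*, a subunit gene of the super elongation complex, had 30.9 FPKM in mutant and 27.5 FPKM in wild-type ovary (change 0.16). *Trf2*, a TBP-related factor of core promoters, had 81.9 FPKM in mutant and 60.7 FPKM in wild-type ovary (change 0.43). *lola* could not be matched to a row of the table. Of the 14 genes tested within 100 kb of *jumu* on chromosome arm 3R, 0 were called, with no replicated test behind that count. Within 1000 kb, 174 genes were tested, of which 3 were higher and 15 lower. Over all 7918 genes, 1.57% were higher and 5.08% lower, and at these shares 14 genes would hold few calls.

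Genes of the inner eggshell layer were among the most abundant lower genes. Of the 11 genes of the vitelline membrane list, 8 were lower in mutant ovary and 0 were higher, with a median change of −1.21 over the list, against 0.02 over all 7918 genes and a share of lower genes of 5.08% there. *Vm34Ca*, a structural vitelline membrane protein gene and one of the 5 highest genes in wild-type ovary, had 10794 FPKM in mutant and 25456 FPKM in wild-type ovary (change −1.24). *Vm26Aa*, another of these structural genes, had 4920.2 FPKM in mutant and 12019 FPKM in wild-type ovary (change −1.29). *Vm26Ab*, its neighbour in the same gene cluster, had 2862 FPKM in mutant and 7952 FPKM in wild-type ovary (change −1.47). Each of these abundant RNAs was more than 2-fold lower in the mutant. *Vm32E*, which lies within *Ca-beta* on the same strand, had 1596 FPKM in mutant and 5517 FPKM in wild-type ovary (change −1.79), the most negative of the list. *ndl*, whose product Nudel is a protease that follicle cells secrete and that acts in eggshell cross-linking, had 10.6 FPKM in mutant and 24.7 FPKM in wild-type ovary (change −1.14). The 3 members that were not called were *fs(1)N* (change −0.09), *fs(1)M3* (change −0.38) and *tsl* (change −0.71), genes whose products also serve the terminal patterning signal of the embryo. Summed over the list, vitelline membrane genes had 20832 FPKM in mutant and 52316 FPKM in wild-type ovary. In bulk tissue, fewer follicle cells of the stage that makes vitelline membrane and less RNA per cell cannot be told apart. With both columns scaled to the same sum over ribosomal protein genes, 2 of the 11 remained past the threshold and the list's median was −0.78, while the median of all genes moved by 0.42. Quantile normalization took *Vm34Ca* to −0.71 and *Vm26Aa* to −0.62.

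The vitelline membrane genes called lower include a physical cluster. *Vm26Ab*, *Vm26Ac*, *Vm26Aa* and *psd* (palisade, an eggshell organiser) lie in 1 run of called genes on chromosome arm 2L, with the uncharacterised *CG13998* and *CG13992* at its ends, all 6 with changes between −1.06 and −1.47. The stretch of 200 bases before the annotated start of the 4 most abundant members is shown because these genes were lower together, with the letters TATAAA, a core promoter box, and TCACGT, a hexamer known from chorion gene promoters, in capitals. The windows are chr2L:13411632-13411831 on the minus strand, chr2L:5960341-5960540 on the minus strand, chr2L:5956804-5957003 on the plus strand and chr2L:11171666-11171865 on the minus strand, read 5′ to 3′ from the RefSeq copy of Release 6 (dm6) with starts from Ensembl.
Vm34Ca: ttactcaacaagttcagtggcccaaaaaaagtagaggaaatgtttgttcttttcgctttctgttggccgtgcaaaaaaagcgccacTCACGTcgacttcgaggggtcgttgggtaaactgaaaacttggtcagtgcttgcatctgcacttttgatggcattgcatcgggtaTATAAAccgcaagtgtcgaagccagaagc
Vm26Aa: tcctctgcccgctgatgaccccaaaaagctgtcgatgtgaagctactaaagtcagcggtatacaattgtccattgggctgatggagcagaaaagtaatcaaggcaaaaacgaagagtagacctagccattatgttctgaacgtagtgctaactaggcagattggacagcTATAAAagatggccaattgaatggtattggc
Vm26Ab: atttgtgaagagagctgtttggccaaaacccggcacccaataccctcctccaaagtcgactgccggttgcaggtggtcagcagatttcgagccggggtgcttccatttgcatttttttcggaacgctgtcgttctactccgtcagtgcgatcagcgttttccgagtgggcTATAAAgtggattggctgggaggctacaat
Vm32E: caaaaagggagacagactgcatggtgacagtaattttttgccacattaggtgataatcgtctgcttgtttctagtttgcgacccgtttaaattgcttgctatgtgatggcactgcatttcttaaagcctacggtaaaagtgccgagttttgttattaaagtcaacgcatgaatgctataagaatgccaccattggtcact
The *Vm32E* window held neither of these letters. TATAAA was found on either strand in 5 of the 11 promoters of the list, against 35.7% of all 7773 promoters of the same length, and TCACGT in 2 of the 11, against 3.55%. Among the 19 chorion list promoters, TCACGT was found in 8. The letters TAAACA, a forkhead core, were found in 1 of the 11, against 24.4% of all promoters. Over the whole comparison TAAACA was found in 14.6% of the promoters of higher genes and 22.3% of those of lower genes. These are matches of letters in a fixed window and describe no binding.

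The chorion genes, which build the outer layers, were lower in part. Of 19 chorion list genes above 1 FPKM, 6 were lower (31.6%, against 5.08% of all genes) and 0 higher, with a median change of −0.61. *Cp7Fc* and *Cp7Fb*, neighbours in the chorion cluster of the X chromosome, had 60.2 and 99.9 FPKM in mutant ovary, against 231 and 343 FPKM in wild-type ovary (changes −1.92 and −1.77). *dec*, the defective chorion gene whose protein is laid down with the vitelline membrane and later enters the chorion, had 220.2 FPKM in mutant and 512 FPKM in wild-type ovary (change −1.21). *Fcp3C*, a follicle cell protein gene, had 52.8 FPKM in mutant and 132 FPKM in wild-type ovary (change −1.30). *yellow-g2*, needed for a rigid eggshell, had 116 FPKM in mutant and 256 FPKM in wild-type ovary (change −1.13), and the mucin gene *Muc11A* had 0.0296 FPKM in mutant and 3.76 FPKM in wild-type ovary (change −2.21).

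The major chorion proteins, whose genes are amplified in late follicle cells, were not called. *Cp36* had 1386 FPKM in mutant and 2080.1 FPKM in wild-type ovary (change −0.59), and *Cp38* had 2393 FPKM in mutant and 3728 FPKM in wild-type ovary (change −0.64). *Cp15* had 5489 FPKM in mutant and 6892 FPKM in wild-type ovary (change −0.33). *Cp18* had the opposite sign, with 1867 FPKM in mutant and 1307 FPKM in wild-type ovary (change 0.51). Whether the vitelline membrane and chorion lists differ beyond the spread of libraries was not tested. Scaling to ribosomal protein genes left 3 of the 19 chorion genes past the threshold.

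**Figure D2:**
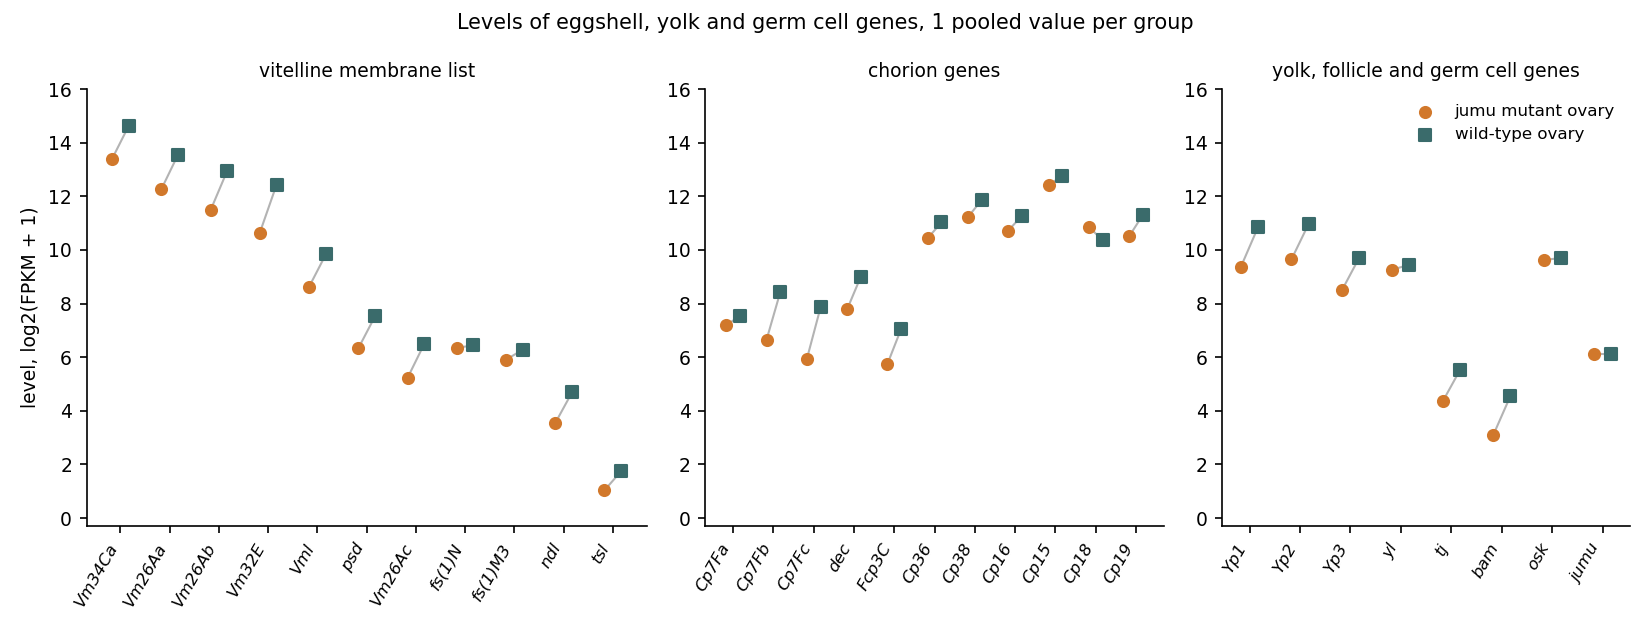
Level of each gene (vertical axis, log2(FPKM + 1), 1 pooled value per group) in jumu mutant ovary (orange circles, left of each pair) and wild-type ovary (green squares, right of each pair). The left panel shows the 11 vitelline membrane list genes, the middle panel chorion genes and the right panel yolk, follicle and germ cell genes. Vm34Ca stands at 10794 FPKM in mutant and 25456 FPKM in wild-type ovary, while osk and jumu have pairs at nearly the same height.

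The yolk protein genes, which follicle cells and fat body both transcribe, were lower together. *Yp1* had 664 FPKM in mutant and 1854 FPKM in wild-type ovary (change −1.48). *Yp2* had 800.4 FPKM in mutant and 1997 FPKM in wild-type ovary (change −1.32), and *Yp3* had 359 FPKM in mutant and 828 FPKM in wild-type ovary (change −1.20). With equal ribosomal protein sums *Yp2* was at −0.89 and *Yp3* at −0.78, below the threshold. The 6 genes of the list that serve lipid transport or yolk uptake were not called. Among them *yl*, the oocyte receptor for yolk protein, had 614 FPKM in mutant and 698 FPKM in wild-type ovary (change −0.18). Fat body markers moved in the same direction in part: 2 of 7 were lower, with a list sum of 111 FPKM in mutant and 132 FPKM in wild-type ovary, and the fat body's own part in the yolk protein RNA was not tested.

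Most regulators of the follicular epithelium were within 2-fold of wild type. Of 22 follicle cell regulators, 2 were lower and 0 higher (median change −0.03). Of 11 genes of the somatic niche and early follicle cells, 1 was lower (median change −0.46). The share of lower genes was 9.09% in each list, against 5.08% of all genes. *tj*, which encodes the large Maf factor Traffic jam of somatic gonadal cells, had 19.4 FPKM in mutant and 44.7 FPKM in wild-type ovary (change −1.16). *wbl*, the Windbeutel gene that follicle cells use to set up the dorsoventral axis, had 3.40 FPKM in mutant and 12.2 FPKM in wild-type ovary (change −1.58), and *Egfr*, the receptor for the oocyte signal Gurken, had 3.76 FPKM in mutant and 9.0 FPKM in wild-type ovary (change −1.07). Just short of the threshold were *eya* (change −0.98), which keeps main-body follicle cells from a polar cell fate, and *br* (change −0.92), an ecdysone-responsive gene of dorsal appendage formation. Other markers of the same cells were near wild type, among them *shg* for E-cadherin (change 0.23), *N* for the Notch receptor (change −0.18) and *Stat92E* (change 0.03). Under the scaling to ribosomal protein genes *tj* moved to −0.75 and *Egfr* to −0.71, below the threshold.

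The hormone ecdysone drives mid-oogenesis, and its own genes were at low levels in both groups. All 5 genes of ecdysone synthesis and turnover above 1 FPKM had changes below 0, and 2 of them were called lower. *sro*, the Shroud enzyme gene, had 3.13 FPKM in mutant and 8.31 FPKM in wild-type ovary (change −1.17). *Cyp18a1*, which inactivates the hormone, had 10.8 FPKM in mutant and 22.8 FPKM in wild-type ovary (change −1.01). Of 15 ecdysone response genes, 1 was lower (6.67%, against 5.08% of all genes). That gene, *Eip74EF*, had 1.26 FPKM in mutant and 3.60 FPKM in wild-type ovary (change −1.02), and *Eip75B*, just outside the threshold, had 24.0 FPKM in mutant and 48.8 FPKM in wild-type ovary (change −0.99). Both *sro* (−0.88 and −0.82) and *Cyp18a1* (−0.95 and −0.61) fell below the threshold with quantile normalization and with equal ribosomal protein sums. The receptor genes were not called: *EcR* had 43.4 FPKM in mutant and 36.2 FPKM in wild-type ovary, and *usp* had 96.9 FPKM in mutant and 91.5 FPKM in wild-type ovary.

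In the germ line, a few single genes were called in lists that were otherwise within 2-fold of wild type. None of the 26 genes of oocyte fate and axis polarity was called (0 higher, 0 lower), with changes between −0.29 and 0.42. *osk*, whose protein assembles the germ plasm, had 784 FPKM in mutant and 832 FPKM in wild-type ovary (change −0.09). *bcd*, the anterior determinant, had 84.9 FPKM in mutant and 71.4 FPKM in wild-type ovary (change 0.25), and *grk*, the Gurken ligand gene, had 24.4 FPKM in mutant and 26.7 FPKM in wild-type ovary (change −0.12). The 12 genes of maternal mRNA control, the 12 of ring canals and nurse cell actin, the 17 of the cell cycle and the 27 of DNA replication also gave 0 calls each. The same held for the 31 proteasome genes, the 23 Polycomb and trithorax genes, the 14 cell death genes and the 10 genes of 6mA and RNA methylation enzymes. These counts come from a threshold on pooled values and carry no test. Over all 7918 genes, 1.57% were higher and 5.08% lower. Among the 4286 genes with a mean level of 20 to 100 FPKM, 14 were higher and 40 lower. At these shares such lists would hold few calls, so 0 calls does not set them apart.

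Of 18 genes of the germline stem cell and cyst list, *bam* alone was called (5.56% lower, against 5.08% of all genes). *bam* (bag of marbles), the switch that sends a stem cell daughter into cyst divisions, had 7.52 FPKM in mutant and 22.3 FPKM in wild-type ovary (change −1.45), with *Jhbp7* as its called neighbour on 3R (change −1.01). Of its partner genes, *bgcn* was below 1 FPKM in both groups and was not examined, and *Sxl* had 90.7 FPKM in mutant and 84.1 FPKM in wild-type ovary. *nanos*, needed to keep germline stem cells, had 423 FPKM in mutant and 388 FPKM in wild-type ovary (change 0.12). Of 37 piRNA pathway genes, *rhi* alone was called (2.7% lower, against 5.08% of all genes). *rhi* (Rhino), the chromodomain protein that marks the clusters from which piRNA precursors are transcribed, had 4.44 FPKM in mutant and 25.1 FPKM in wild-type ovary (change −2.26). Its partners at these clusters were not called: *del* had a change of 0.30, *cuff* of 0.47 and *moon* of 0.33. *rhi* lies within *CG10936* on the same strand (change −1.51), and the next called gene, *Oxp*, had 31.6 FPKM in mutant and 87.7 FPKM in wild-type ovary (change −1.44), so reads of the overlapping genes may not be fully separated.

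Meiotic genes were called in both directions. Of 28, 3 were higher (10.7%, against 1.57% of all genes) and 1 was lower (3.57%, against 5.08%). *c(3)G*, the transverse filament of the synaptonemal complex that joins homologous chromosomes, had 7.48 FPKM in mutant and 18.1 FPKM in wild-type ovary (change −1.17). *cona*, which encodes another central region protein of the same complex, had the opposite sign, with 4.34 FPKM in mutant and 1.12 FPKM in wild-type ovary (change 1.33). Under equal ribosomal protein sums *c(3)G* was at −0.78 and the counts were 5 higher and 0 lower. *ord*, needed for sister chromatid cohesion in meiosis, had 5.55 FPKM in mutant and 0.197 FPKM in wild-type ovary (change 2.45). *narya*, a RING finger gene of meiotic recombination, had 4.90 FPKM in mutant and 0.834 FPKM in wild-type ovary (change 1.69). Both *ord* and *narya* reached 1 FPKM in the mutant alone, so the minimum fixed their direction and part of the 10.7%. *ncd*, a kinesin gene of the meiotic spindle, was the lower gene closest to the threshold from outside, with 30.9 FPKM in mutant and 62.6 FPKM in wild-type ovary. *ord* closes a run of called genes on 2R with *CG12782* (change 1.99) and *CG13540* (change 4.21), the gene with the second largest increase. The testis list had 1 gene above 1 FPKM, *mia* (meiosis I arrest, a TAF-like factor of spermatocytes), with 6.30 FPKM in mutant and 1.59 FPKM in wild-type ovary.

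**Figure D3:**
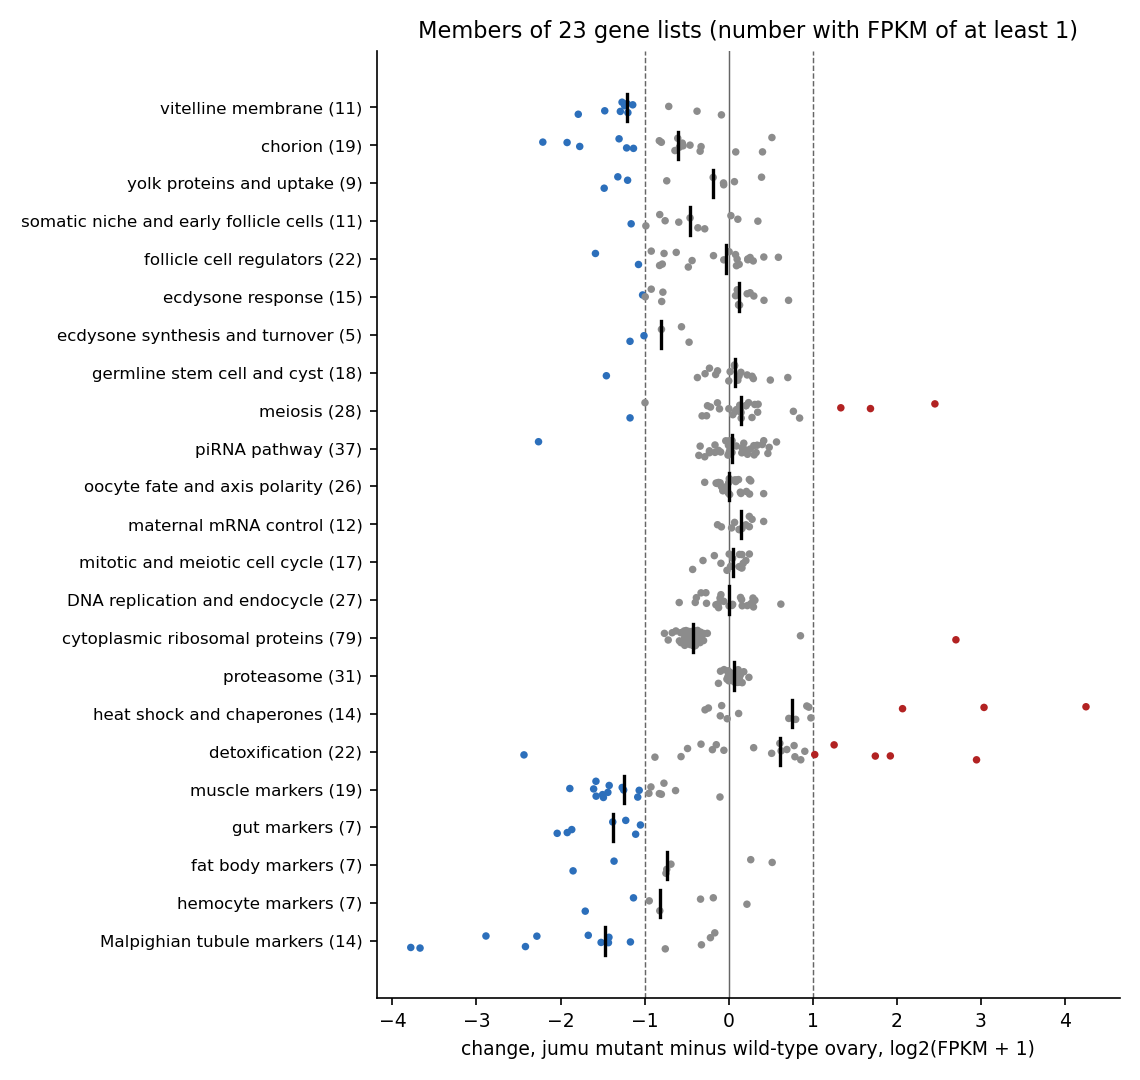
Changes of the members of each gene list with at least 1 FPKM in either group (horizontal axis, difference of log2(FPKM + 1), jumu mutant minus wild-type ovary). Each point is a gene, the black bar is the median of its list, the dashed lines mark the threshold of 1, red points are called higher and blue points called lower. Vertical scatter within a row only separates the points. The vitelline membrane, muscle, gut and Malpighian tubule medians lie left of −1, the ribosomal protein genes sit close together around −0.42, and the oocyte polarity and proteasome genes centre on 0. The gut genes reached the minimum in wild type alone, and the tubule list was drawn up after the values were seen.

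Small heat shock protein genes gave the largest increases among well expressed genes. Of 14 heat shock and chaperone genes, 3 were higher and 0 lower, against 1.57% higher over all genes. *Hsp23* had 482 FPKM in mutant and 24.4 FPKM in wild-type ovary (change 4.25), the largest increase of the whole table. *Hsp22*, whose protein works in mitochondria, had 359 FPKM in mutant and 42.8 FPKM in wild-type ovary (change 3.04). *Hsp68*, an inducible Hsp70 family member, had 9.59 FPKM in mutant and 1.53 FPKM in wild-type ovary (change 2.07). *Hsp26* and *Hsp27*, small heat shock genes that ovarian cells also use in normal development, were the most abundant of the small heat shock genes, and both fell short of the threshold. *Hsp26* had 3442 FPKM in mutant and 1748 FPKM in wild-type ovary (change 0.98), and *Hsp27* had 1162 FPKM in mutant and 669 FPKM in wild-type ovary (change 0.80). The constitutive chaperone genes *Hsp83* (change −0.24), *Hsc70-4* (change −0.28) and *Hsc70-3* (change −0.08) were not called. With the pseudocount of 0.1, with quantile normalization or with equal sums outside the eggshell and yolk genes, 6 of the 14 were higher. With equal ribosomal protein sums, 7 were higher.

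The 200 bases before the start are shown for *Hsp23* and *Hsp68* because their promoters carry the paired GAA and TTC blocks of heat shock elements, given in capitals with TATAAA. The windows are chr3L:9381682-9381881 on the plus strand and chr3R:24057311-24057510 on the minus strand (dm6), each 5′ to 3′.
Hsp23: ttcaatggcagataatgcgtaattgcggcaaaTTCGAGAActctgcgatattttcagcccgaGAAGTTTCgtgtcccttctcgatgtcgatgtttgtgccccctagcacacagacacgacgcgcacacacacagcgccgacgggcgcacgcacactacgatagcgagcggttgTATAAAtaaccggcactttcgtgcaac
Hsp68: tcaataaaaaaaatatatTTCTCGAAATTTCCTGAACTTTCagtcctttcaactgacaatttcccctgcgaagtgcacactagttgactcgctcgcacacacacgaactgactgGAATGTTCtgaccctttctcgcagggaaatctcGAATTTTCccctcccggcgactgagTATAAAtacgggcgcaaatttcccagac
The letters TTCNNGAA occurred 1 time in the *Hsp23* window and GAANNTTC 1 time, while the *Hsp68* window held 2 of the first and 4 of the second, some of them overlapping. GAANNTTC was found in 7 of the 14 promoters of the list and TTCNNGAA in 4, against 5.52% and 5.31% of all 7773 promoters. Over the comparison as a whole, GAANNTTC was found in 4.07% of the promoters of higher genes and 4.82% of those of lower genes. Each pair reads the same on both strands. No window is shown for *Hsp22*, which overlaps *CG4456* on the same strand.

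Genes of detoxification moved partly in the same direction. Of 22 such genes, 5 were higher (22.7%, against 1.57% of all genes) and 1 lower (4.55%, against 5.08%), with a median change of 0.62. With equal ribosomal protein sums 11 were higher. *GstD2*, a glutathione S-transferase gene, had 24.2 FPKM in mutant and 2.27 FPKM in wild-type ovary (change 2.95). *GstE1*, of the same enzyme family, had 133 FPKM in mutant and 39.1 FPKM in wild-type ovary (change 1.74). The cytochrome P450 gene *Cyp6a9* had 10.8 FPKM in mutant and 2.1 FPKM in wild-type ovary (change 1.92), next to *Cyp6a20* on 2R (change 1.02). *GstD10* was the other higher member (change 1.25). *Cyp6g1*, a P450 gene known from insecticide resistance, was lower, with 0.437 FPKM in mutant and 6.77 FPKM in wild-type ovary (change −2.43). Over all 33 cytochrome P450 genes above 1 FPKM, 3 were higher and 7 lower, and over all 27 glutathione S-transferase genes, 3 were higher and 2 lower, both lists having been drawn up after the values were seen. Immune peptide genes were called in both directions, with 1 higher and 3 lower of 11. *CecA1*, a cecropin gene, had 6.49 FPKM in mutant and 1.21 FPKM in wild-type ovary (change 1.76), and *IM33* had 2.82 FPKM in mutant and 18.3 FPKM in wild-type ovary (change −2.34).

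Several of the other large increases were in genes nearly silent in wild-type ovary. *Obp56d*, an odorant-binding protein gene, had 21.7 FPKM in mutant and 0.453 FPKM in wild-type ovary (change 3.96). *Prx6b*, a peroxiredoxin gene, had 13.4 FPKM in mutant and 0.188 FPKM in wild-type ovary (change 3.60), and its neighbour *Prx6c* was also called (change 1.56). *dany*, known for its role in spermatocyte chromatin, had 9.63 FPKM in mutant and 0.174 FPKM in wild-type ovary (change 3.18). *RpS10a*, one of a pair of genes for ribosomal protein S10, had 38.9 FPKM in mutant and 5.13 FPKM in wild-type ovary (change 2.70). The *RpS10b* copy could not be matched to a row, so how reads were divided between the copies is uncertain. *Drep1*, a member of the DNA fragmentation factor family, had 82.9 FPKM in mutant and 11.4 FPKM in wild-type ovary (change 2.76). *e(y)2b*, a paralogue of the coactivator gene *e(y)2*, had 9.72 FPKM in mutant and 0.552 FPKM in wild-type ovary (change 2.79).

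Muscle markers were lower in part in the mutant samples. Of 19 muscle markers, 12 were lower (63.2%, against 5.08% of all genes) and 0 higher, with a median change of −1.25. The list sum was 392 FPKM in mutant and 692 FPKM in wild-type ovary. *Act57B*, a muscle actin gene, had 38.8 FPKM in mutant and 146 FPKM in wild-type ovary (change −1.89). *Mhc*, the muscle myosin heavy chain gene, had 5.78 FPKM in mutant and 19.2 FPKM in wild-type ovary (change −1.58). The light chain genes followed: *Mlc1* had 5.37 FPKM in mutant and 18.4 FPKM in wild-type ovary (change −1.61), and *Mlc2* had 6.90 FPKM in mutant and 22.6 FPKM in wild-type ovary (change −1.58). *Tm1*, which non-muscle cells also use, was not called (change −0.10). Ovarioles carry a muscle sheath of their own, so these genes do not mark outside tissue alone. No muscle list member above 1 FPKM was at 0 in either group. With equal ribosomal protein sums, 8 of the 19 were lower (median change −0.85).

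Digestive markers were at low levels in both groups, and several renal markers were lower in the mutant. All 7 gut markers that reached 1 FPKM did so in wild type alone and were called lower, a direction that the 1 FPKM minimum fixes, with a list sum of 1.07 FPKM in mutant and 17.2 FPKM in wild-type ovary, and 13 of the 23 gut genes in the table were listed at 0 in the mutant. *alphaTry*, a trypsin gene, was listed at 0 in mutant ovary, against 3.11 FPKM in wild-type ovary, and *LysD*, a lysozyme gene, had 0.294 FPKM in mutant and 3.72 FPKM in wild-type ovary (change −1.87). Of 14 Malpighian tubule markers, 10 were lower (71.4%, against 5.08% of all genes) and 4 were not called. This list was drawn up after the values were seen, and all 14 reached 1 FPKM in wild type. The list sum was 359 FPKM in mutant and 480 FPKM in wild-type ovary. *Uro*, the urate oxidase gene of the tubules, had 0.173 FPKM in mutant and 13.9 FPKM in wild-type ovary (change −3.67). *Dh44-R2*, a diuretic hormone receptor gene, had 0.419 FPKM in mutant and 18.5 FPKM in wild-type ovary (change −3.78). Both genes reached 1 FPKM in wild type alone, so the minimum fixed their direction too. The same held for *salt* (0.123 FPKM in mutant and 7.30 FPKM in wild-type ovary) and *NaPi-T* (0.471 and 6.15 FPKM). The 71.4% is therefore set in part by the minimum. Of 7 hemocyte markers, 2 were lower, and *Ppn*, for the matrix protein Papilin, had 1.57 FPKM in mutant and 7.39 FPKM in wild-type ovary (change −1.71). Neuron markers (4 above 1 FPKM) and reproductive tract markers (5 above 1 FPKM) gave 0 calls, and no male accessory gland gene reached 1 FPKM.

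**Figure D4:**
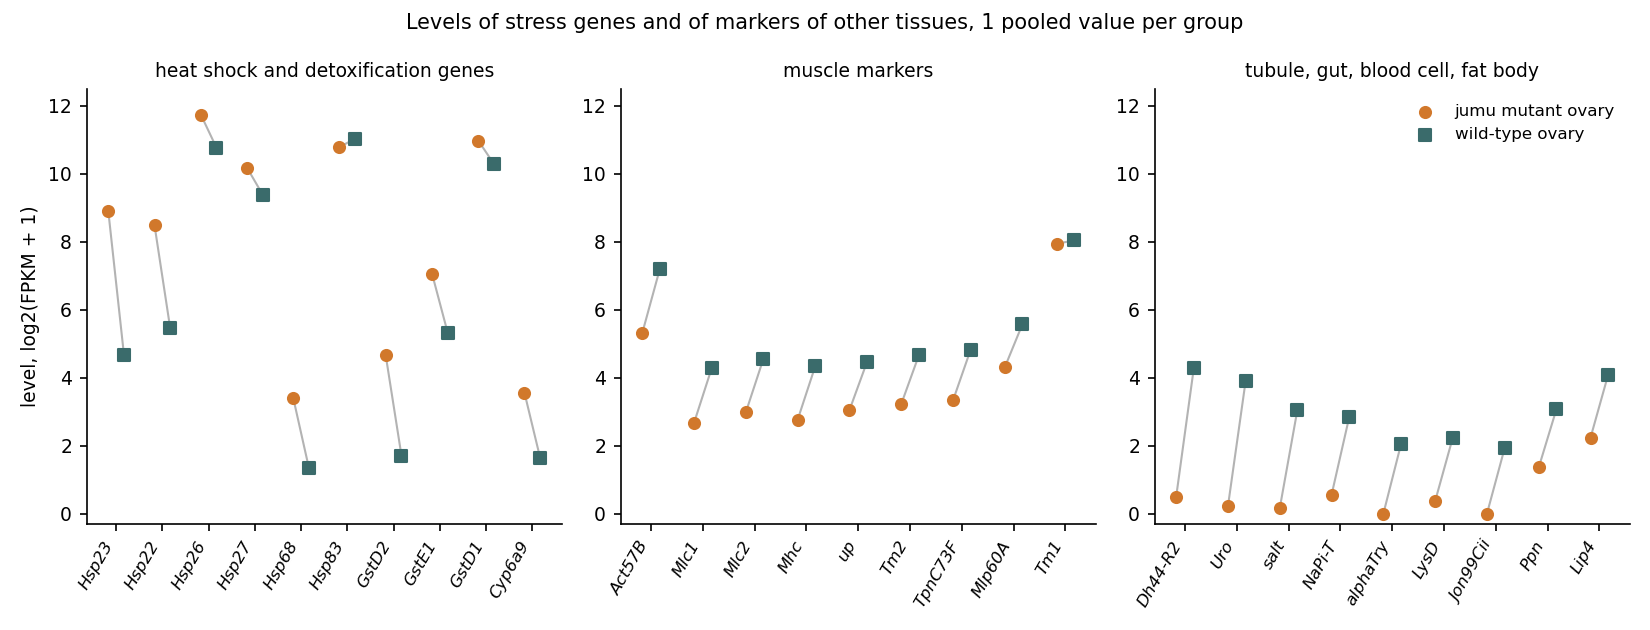
Level of each gene (vertical axis, log2(FPKM + 1), 1 pooled value per group) in jumu mutant ovary (orange circles, left of each pair) and wild-type ovary (green squares, right of each pair). The left panel holds heat shock and detoxification genes, the middle panel muscle markers and the right panel markers of Malpighian tubule, gut, blood cells and fat body. Hsp23 stands at 482 FPKM in mutant and 24.4 FPKM in wild-type ovary, and alphaTry and Jon99Cii are listed at 0 in the mutant.

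With the muscle, gut, fat body, hemocyte and tubule lists left out, 124 genes were higher and 369 lower in mutant ovary. Their part in the remaining 369 was not tested, and neither was their part in the yolk and follicle cell results above. The largest decreases of the table were in genes outside those lists. *CG14292*, uncharacterised, had 0.543 FPKM in mutant and 107 FPKM in wild-type ovary (change −6.13), and its neighbour *CG34284* on 3R was listed at 0 in mutant, against 15.1 FPKM in wild-type ovary. *Cyp4g1*, a P450 gene of cuticular hydrocarbon synthesis in oenocytes, had 0.612 FPKM in mutant and 32.3 FPKM in wild-type ovary (change −4.37), and it overlaps *CG32816* on the same strand, which was called higher (change 1.13). *Mur18B*, a mucin-related gene, had 0.286 FPKM in mutant and 28.6 FPKM in wild-type ovary (change −4.53). Small non-coding RNAs were among those listed at 0 in the mutant: *snRNA:U2:38ABa*, a spliceosomal RNA gene, was at 0 in mutant and 48.1 FPKM in wild-type ovary, and *RNaseP:RNA*, an RNA that every cell uses, was at 0 in mutant and 8.30 FPKM in wild-type ovary. A listed 0 is therefore not read as absence. *snRNA:U11*, of the minor spliceosome, went the other way, with 114 FPKM in mutant and 25.9 FPKM in wild-type ovary (change 2.1).

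Some called genes lay next to each other, with no share expected from all genes computed. Among the 402 lower genes, 102 stood in 42 runs of called neighbours with gaps of up to 5 kb, and among the 124 higher genes, 26 stood in 12 runs. Besides the vitelline membrane cluster, the lower runs held *Yp1* with *Yp2*, *Cp7Fb* with *Cp7Fc*, and tandem families such as *Oatp58Da*, *Oatp58Db* and *Oatp58Dc*, organic anion transporter genes with changes of −1.17, −1.67 and −2.42. By chromosome arm the median change ran between 0.00 on 2R and 0.05 on chromosome 4.

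The ribosomal protein genes moved as a block, with *RpS10a* the only one called. Of 79 genes, 77 had a change below 0, with a median of −0.42 and quartiles of −0.47 and −0.39, and these genes made up 29.7% of the summed FPKM in mutant and 34.1% in wild-type ovary. *RpL41*, the highest gene of the table, had 40889.5 FPKM in mutant and 53027 FPKM in wild-type ovary (change −0.37), and *RpL29* had 12522 FPKM in mutant and 16468 FPKM in wild-type ovary (change −0.40). Transcript length moved with the change as well. Among other protein-coding genes of at least 20 FPKM on average, outside the eggshell and yolk lists, the median change was −0.14 for the 83 genes with a longest transcript under 500 bases and 0.09 for the 347 genes with one over 6000 bases. The ribosomal protein genes had a median longest transcript of 877 bases, and the part of transcript length in their change was not tested. Quantile normalization or scaling to their own sum set their median to 0.00, so their direction is relative to the scaling of the deposited values.

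Embryos laid by *jumu* mutant mothers were sequenced at 0.75 h after fertilization, a stage that the paper places nearly before activation of the zygotic genome. RNA made in the ovary makes up most of the RNA at that stage, but the muscle RNA given below need not come from it. Those embryos lacked maternal Jumu but had a paternal wild-type copy (M-,Z+), and this comparison has its own wild type, 2 libraries per group and no sample in common with the ovaries. Of the 7072 genes tested in both tables, 1.17% were higher and 2.25% lower in the 0.75-h mutant embryos. Of the 99 genes higher in mutant ovary that were tested there, 32 were also higher in the embryos (32.3%) and 4 were lower. Of the 169 genes lower in mutant ovary that were tested there, 82 were also lower in the embryos (48.5%) and 4 were higher. The 82 include muscle genes such as *Mhc* and *Mlc1*, so this share does not count ovary RNA carried into the egg alone. Many of the 82 reached 1 FPKM at 0.75 h in wild type alone, such as *alphaTry* (0.164 FPKM in mutant and 1.38 FPKM in wild-type embryos). The minimum fixed the direction of such genes in the embryos, and for some of them in the ovary too. The share of the 83 higher embryo genes that were also higher in ovary was 38.6%, and that of the 159 lower embryo genes that were also lower in ovary was 51.6%.

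*bam*, *rhi*, *c(3)G* and *ord* had the same direction in the egg as in the ovary. *bam* changed by −1.55 in the embryos, with 9.07 FPKM in mutant and 28.4 FPKM in wild type, beside −1.45 in ovary. *rhi* changed by −1.86 in the embryos and −2.26 in ovary, and *c(3)G* by −1.16 and −1.17. *ord* changed by 3.20 in the embryos and 2.45 in ovary, and it reached 1 FPKM in the mutant alone in both. *RpS10a* was at 18.8 FPKM in mutant and 2.09 FPKM in wild-type embryos, a change of 2.67 beside 2.70 in ovary, and *dany* changed by 3.65 beside 3.18. The heat shock genes were higher in both, *Hsp23* by 2.17 in embryos and 4.25 in ovary, and *Hsp22* by 1.91 and 3.04. Muscle markers were lower in both: 15 of 19 in the embryos, with a median of −2.66, and 12 of 19 in ovary. No muscle has formed in embryos of that age. The wild-type embryos still had 171 FPKM of *Act57B*, 43.9 FPKM of *Mlc2* and 14.8 FPKM of *Mhc*, and the source of this RNA was not tested. Of the 11 vitelline membrane genes only 2 reached 1 FPKM in the embryo table, so the eggshell result could not be set beside it. At 3 h, when the zygotic genome is active, *Hsp22* changed by 4.82 in M-,Z+ and 3.11 in M-,Z- embryos, *Drep1* by 3.38 and 3.94, *RpS10a* by 1.69 and 2.69, and *ord* by 1.63 and 3.04, both genotypes against the same wild type. Other genes that matched between egg and ovary did not keep their direction or size at 3 h. *bam* changed by 0.77 in M-,Z+ and 1.90 in M-,Z- embryos, *c(3)G* by 0.80 and 0.60, *rhi* by 0.29 and −0.32, and *dany* by −0.39 and −0.13.

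**Figure D5:**
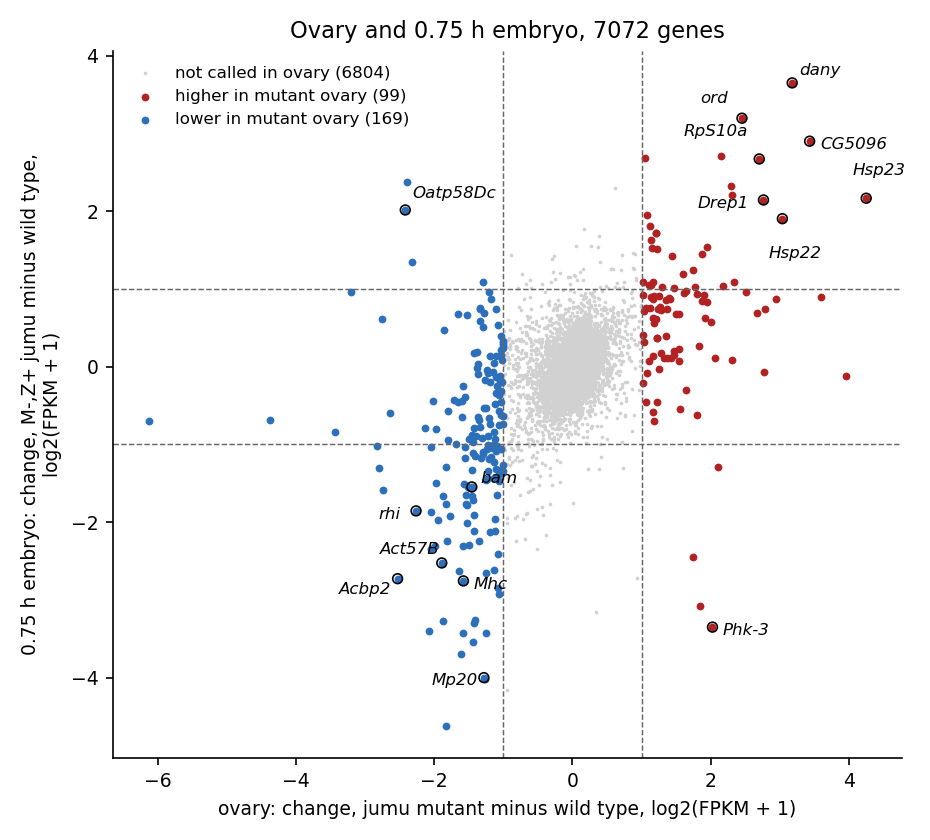
Change in jumu mutant ovary (horizontal axis) and in 0.75-h M-,Z+ jumu embryos (vertical axis), each against its own wild type, as differences of log2(FPKM + 1) for the 7072 genes with at least 1 FPKM in a group of both tables. Red and blue points are the genes called higher and lower in mutant ovary, and dashed lines mark the threshold of 1 in each comparison. Hsp23, RpS10a and ord lie high on both axes and rhi, bam and the muscle genes low on both, while Oatp58Dc and Phk-3 lie in opposite corners.

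The shares of called genes with a Jumu or 6mA peak were taken from lists made with embryo DNA. With a window of 1 kb they were at or below the share of all genes. At 5 kb the 0.75-h Jumu shares stayed below it and the 0.75-h 6mA shares were above it. The 6-h shares at 5 kb lay on both sides of it. A peak of Flag-Jumu pull-down at 0.75 h had its centre in or within 1 kb of 2.44% of the 123 higher genes (95% Clopper-Pearson interval 0.506 to 6.96) and 2.79% of the 394 lower genes (1.40 to 4.94), against 5.08% of all 7773 genes with a place in the annotation (4.60 to 5.59). A 6mA peak at 0.75 h was found at 18.7% of the higher genes (12.2 to 26.7) and 21.8% of the lower genes (17.8 to 26.2), against 23.1% of all genes (22.1 to 24.0). With the 6-h lists, Jumu peaks were found at 0.813% of higher and 0.761% of lower genes, against 2.11% of all genes, and 6mA peaks at 3.25% and 3.3%, against 5.71%. The intervals cover counting error only, genes are not independent, and neither mark was measured in ovaries in the files used here.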

How the data were processed

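RNA was isolated with TRIzol and poly(A) RNA was selected, and the labels name Illumina HiSeq and NovaSeq instruments without saying which libraries were run on which. Per the study's methods and the submitters' processing notes, the authors removed ribosomal RNA reads with Bowtie2 2.2.8, mapped the rest to dm6 with STAR 2.5.2b and deposited FPKM from Cuffdiff 2.2.1, 1 value per gene and group. The notes also list TopHat2 and FastQC. The peak lists were called by the authors with MACS2 2.1.1.20160309, and their deposited score was not used beyond reading the lists. Whether counting used strand is not given in the sources used here, so reads of overlapping genes on either strand may be shared.

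The tables hold 1 pooled value per group, so no test was run. Genes reaching 1 FPKM in mutant or wild-type ovary were examined and called where log2(FPKM + 1) differed by 1 or more. Depth is unknown. Of 11482 IDs, 11309 matched a symbol and a place in Ensembl release 115, and 173 did not and are not named. Shares of genes with a peak have 95% Clopper-Pearson intervals. The calling was run on simulated data made from the wild-type values, with known changes larger than 2-fold in genes of at least 5 FPKM. That run checks the code only and does not cover the weakly expressed genes in which most calls lie. Python 3.11.15, numpy 2.4.6, pandas 2.3.3, scipy 1.17.1 and matplotlib 3.10.9 were used.

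Genes were named by rule: *jumu* and the study's target genes, the 12 largest increases and 12 largest decreases among genes of at least 5 FPKM, up to 4 called members of each list with the largest changes (or 3 by level where none was called), and the 5 highest genes of wild-type ovary. Other genes named were chosen after their values were seen. The comparison and the 44 gene lists were chosen with earlier results of these data known, and 7 lists were drawn up after the ovary values were seen. Alternatives covered the pseudocount, filters, threshold, scaling, peak window and embryo filter.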

Additional observations from a re-analysis of the deposited data

Results flagged for a closer look

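Of the genes called in ovary and tested at 0.75 h, 8 were called in opposite directions in the ovary and in the embryos, each against its own wild type. With 1 pooled value per group the difference between the 2 comparisons was not tested.

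*Oatp58Dc*, an organic anion transporter gene, changed by −2.42 in ovary and 2.02 in the embryos. *asRNA:CR45969* changed by −2.40 in ovary and 2.38 in the embryos, and it was listed at 0 in mutant ovary. *28SrRNA-Psi:CR45860*, a ribosomal RNA pseudogene, changed by −2.32 in ovary and 1.34 in the embryos, where it had 2381 FPKM in mutant and 938 FPKM in wild type. *CG34423* changed by −1.30 in ovary and 1.09 in the embryos. *CG4115* changed by 1.75 in ovary and −2.45 in the embryos, and *CG1368* by 1.84 in ovary and −3.07 in the embryos. *Phk-3* had 13.2 FPKM in mutant and 2.49 FPKM in wild-type ovary (change 2.03), and 0.183 FPKM in mutant and 11.1 FPKM in wild-type embryos (change −3.35). *snRNA:U11* changed by 2.1 in ovary and −1.28 in the embryos.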

How the results depend on the processing

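No paired analysis was possible because the ovary columns hold 1 pooled value per group with no replicate number, and for the same reason no library could be left out. The counts of genes higher and lower in mutant ovary, 124 and 402, were 200 and 632 with a pseudocount of 0.1, 76 and 236 among genes of at least 5 FPKM, 294 and 832 at 1.5-fold, and 27 and 84 at 4-fold. Scaling changed the balance of calls, of which 23.6% were higher as reported. Quantile normalization gave 189 higher and 284 lower (40.0% higher), equal sums outside the eggshell and yolk lists gave 159 and 322 (33.1%, with the median of all genes moved by 0.17), and equal ribosomal protein sums gave 259 and 245 (51.4%, with the median moved by 0.42). Setting the median change to 0 gave 118 and 415. Leaving out the filter could not change the counts, since a gene below 1 FPKM in both groups cannot reach a change of 1, and no symbol had more than 1 row, so keeping rows apart changed nothing. Of the alternatives chosen after seeing the data, genes above 0 in both groups gave 124 and 301, and genes outside the other-tissue lists gave 124 and 369.

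With equal ribosomal protein sums, 2 vitelline membrane and 3 chorion genes stayed lower, and 7 heat shock genes were higher, against 6 with a pseudocount of 0.1, with quantile normalization or with equal sums outside the eggshell and yolk lists. Of the 125 genes named by the rule, all kept their side of the threshold with a pseudocount of 0.1 and with the median set to 0. Outside the rule, *ncd*, *Eip75B* and *eya* lay just short of the threshold, and with the median set to 0 the lower genes of the meiosis, ecdysone response and somatic niche lists numbered 2 each, against 1 each as reported. With quantile normalization 7 dropped below it, with equal sums outside the eggshell and yolk lists 4 did, and with equal ribosomal protein sums 16 did and 1 rose above it. None of these 125 genes called as reported changed sign under any of these settings.

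With a peak centre within 5 kb, 6mA peaks at 0.75 h were found at 43.9% of higher and 44.2% of lower genes, against 42.6% of all genes, and 6mA peaks at 6 h at 10.6% and 9.14%, against 10.2%. Jumu peaks were found at 4.07% of higher and 7.36% of lower genes at 0.75 h, against 8.9% of all, and at 4.07% and 3.55% at 6 h, against 3.87%. With the centre inside the gene, 6mA peaks at 0.75 h were found at 16.8% of lower genes, against 18.5% of all. At 5 FPKM in both tables, 71.7% of the 60 lower ovary genes were also lower at 0.75 h. Of the 58 higher ovary genes, 34.5% were also higher there. For all genes only the shares at the 1 FPKM minimum are given: 2.25% of 7072 genes were lower and 1.17% higher in the embryos. The shares at 5 FPKM therefore have no share of all genes at their own minimum beside them. The lack of values per library limits every comparison.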

Other observations

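Some gene groups not described above were also read. Over all 7918 genes, 1.57% were higher and 5.08% lower. Counting genes that reached 1 FPKM in either group, of 122 long non-coding RNA genes 10 were higher and 23 lower in mutant ovary, and of 104 antisense RNA genes, 7 were higher and 4 lower, both lists drawn up after the values were seen, as were the next 2. The 7 small nuclear and nucleolar RNA genes of the table gave 1 higher and 4 lower. Of 13 UDP-glycosyltransferase genes 1 was lower, of 7 serpin genes 1 was lower, of 6 odorant-binding protein genes 1 was higher and 2 were lower, and the 14 histone variant and chromatin protein genes and the 7 cuticle protein genes gave 0 calls. Among the odorant-binding protein genes, *Obp19c* had 54.9 FPKM in mutant and 198 FPKM in wild-type ovary (change −1.83).

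Further genes moved the same way in ovary and in 0.75-h embryos and were chosen here after their values were seen. *MtnA*, a metallothionein gene that binds copper and other metals, had 251 FPKM in mutant and 925 FPKM in wild-type ovary (change −1.88), and 7.38 FPKM in mutant and 79.9 FPKM in wild-type embryos (change −3.27). *Act42A*, a cytoplasmic actin gene, had 155 FPKM in mutant and 353 FPKM in wild-type ovary (change −1.18), and changed by −1.03 in the embryos. The other cytoplasmic actin gene, *Act5C*, had 1543 FPKM in mutant and 1640.4 FPKM in wild-type ovary (change −0.09). *GLaz*, a lipocalin gene, had 15.2 FPKM in mutant and 2.30 FPKM in wild-type ovary (change 2.30), and changed by 2.33 in the embryos. *TrxT*, a thioredoxin gene known from testis, had 4.81 FPKM in mutant and 0.148 FPKM in wild-type ovary (change 2.34), and changed by 1.09 in the embryos.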
